A study of Mus musculus with 12 samples.

Results

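The 5 variable segments at the 5′ end of the mouse T cell receptor beta locus, TRBV1 to TRBV5, were followed in sorted thymocytes. Their members were all beta chain reads with a covered, in-frame CDR3 free of stop codons whose best V hit was TRBV1, TRBV2, TRBV3, TRBV4 or TRBV5. The CDR3 spans the V-D-J join. These segments took 237627 of 1233404 productive beta reads over 12 libraries, and were 5 of the 24 TRBV segments with a productive read. TRBV5 alone gave 166701 of these reads, TRBV3 28079, TRBV1 21848, TRBV4 13837 and TRBV2 7162.

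The groups were Chrna9 knockout (KO, Chrna9-/-) CD4SP, wild-type (WT) CD4SP, KO CD8SP and WT CD8SP thymocytes, with 3 libraries each from 3 KO and 3 WT mice. Chrna9 encodes a nicotinic acetylcholine receptor subunit, and the series title names negative selection as its subject. The stain for the sort held CD4 and CD8 alone, and 1000000 CD4SP or 330000 CD8SP cells went into each sample. The mice were 2 male pairs and 1 female pair, and the labels give neither their ages, their strain nor the number of the female pair. CD4SP and CD8SP libraries with the same genotype and number came from the same mouse, so the n of 6 in each lineage counts mice. CD4SP libraries held 74021 to 104434 productive beta reads and CD8SP libraries 92648 to 134169, besides 1276 to 2366 nonproductive reads in each. A share of reads does not tell more cells from more receptor RNA per cell. Libraries of receptor chains have no readout of Cd4, Cd8 or Chrna9, so the sort and the knockout were not checked. P-values measure the spread between these libraries.

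A beta chain is assembled in developing thymocytes by joining a D to a J segment and then a V segment to the DJ join. Exonuclease trims the ends and terminal transferase adds bases, so many joins lose the reading frame. Thymocytes then mature as CD4SP cells when their receptor is selected on MHC class II, and as CD8SP cells on class I. CDR1 and CDR2 are encoded by the V segment and mostly contact the MHC molecule, while the CDR3 lies over the peptide.

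TRBV1, long known as V beta 2, lies apart from the other members, at chromosome 6, 40891296 to 40891885 of the GRCm38.p6 assembly. The remaining members, V beta 4, 16, 10 and 1 in the older numbering, lie within 15.2 kb that starts 155.7 kb downstream of it. Their RefSeq gene spans are 41047556 to 41047995 for TRBV2, 41048394 to 41048824 for TRBV3, 41059443 to 41059886 for TRBV4 and 41062359 to 41062803 for TRBV5. TRBJ1-1, the nearest J segment, is 471.1 kb from TRBV5 and 642.0 kb from TRBV1.

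The bases with which each untrimmed V segment opens the CDR3 are shown because they set what a join must lose or keep. They were read from joins, productive or not, that had no V base removed and no difference from the V reference. Capitals mark the bases after the fourth codon.
TRBV1: tgcacctgcagtGCAGA
TRBV2: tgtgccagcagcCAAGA
TRBV3: tgtgccagcagcTTAGC
TRBV4: tgtgccagcagcTAAGA
TRBV5: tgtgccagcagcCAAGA
TRBV2 and TRBV5 opened the CDR3 with the same bases. In TRBV4 the fifth codon was TAA, a stop codon, so a TRBV4 join in which this codon was intact could not be productive. Among nonproductive TRBV4 reads, 52.1% held a stop at the fifth codon, against 0.745% to 3.53% in the other members.

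TRBV2 and TRBV5 also encoded the same CDR1 peptide, although 3 of its 15 bases differed. Both are shown, with the differing bases in capitals.
TRBV2 CDR1: ctAggCcaCaatgct
TRBV5 CDR1: ctGggAcaTaatgct
Their CDR2 differed at 9 of 18 bases. Over the whole V region, TRBV2 and TRBV5 were the closest pair, with 63.6% of aligned bases alike, and TRBV1 and TRBV3 the most distant with 47.5%.

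Of the 5 members, 3 were used more in CD4SP than in CD8SP thymocytes, and TRBV2 moved most. The sum of the 5 took 24.5% ± 0.270 of productive beta reads in CD4SP and 15.4% ± 0.395 in CD8SP libraries (SD, n = 6 each). With edgeR's quasi-likelihood test and Benjamini-Hochberg adjustment at 0.05, TRBV2, TRBV3 and TRBV5 were called higher in CD4SP. Of all 35 V and J segments tested, 85.7% were called in either direction and 51.4% as higher, so lineage differences were general and a call is no special feature of these members. The median log2 fold change was 0.62 over the 5 members and 0.16 over all 35 segments.

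TRBV2 took 0.902%, 0.967% and 1.03% of productive reads as the lowest, median and highest values of the CD4SP libraries, against 0.255%, 0.277% and 0.354% in the CD8SP libraries. No CD8SP library reached the lowest CD4SP library. The log2 fold change was 1.73 (SE 0.059), with an adjusted p of 1.24e-12 in edgeR and higher values in CD4SP in 6 of 6 mice. TRBV2 ranked 19 of 24 TRBV segments in CD4SP and 21 of 24 in CD8SP.

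TRBV5, the most abundant member, ranked 2 of 24 in CD4SP and 4 of 24 in CD8SP. Its lowest, median and highest shares were 16.9%, 17.8% and 18.4% in CD4SP, against 9.495%, 10.4% and 10.8% in CD8SP. The lineages did not overlap, and the log2 fold change was 0.78 (SE 0.028, edgeR adjusted p = 2.27e-12, higher in 6 of 6 mice).

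TRBV3 took 2.52%, 2.89% and 3.06% in CD4SP as lowest, median and highest, against 1.75%, 1.84% and 1.98% in CD8SP. These ranges were separate too, at a log2 fold change of 0.62 (SE 0.035, edgeR adjusted p = 3.97e-10, higher in 6 of 6 mice).

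TRBV1 and TRBV4 had overlapping ranges in the lineages. TRBV1 took 1.67% to 1.95% in CD4SP (median 1.7996%) and 1.52% to 1.86% in CD8SP (median 1.78%). Its log2 fold change was 0.04 (SE 0.035, edgeR adjusted p = 0.313) with 4 of 6 mice higher in CD4SP. TRBV4 took 1.00% to 1.26% in CD4SP (median 1.11%) and 0.991% to 1.23% in CD8SP (median 1.18%), at a log2 fold change of -0.01 (SE 0.064, adjusted p = 0.869). Shares of a total depend on the scaling: TMM factors moved the members' log2 fold changes by a median of -0.13 and DESeq2 size factors by -0.16. TRBV1 and TRBV4 were then called lower in CD4SP, at -0.09 and -0.14 with TMM and at -0.12 and -0.17 with DESeq2. They were also called lower, at -0.06 and -0.25, when each nucleotide clonotype was counted once. Whether TRBV1 and TRBV4 changed thus depends on the scaling and the counting, and the calls of TRBV2, TRBV3 and TRBV5 did not.

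TRBV1 is a known partner of the invariant natural killer T (NKT) alpha chain, besides more frequent partners. That chain, TRAV11 joined to TRAJ18, made up 5.26% to 8.49% of productive alpha reads in CD4SP and 0.0495% to 0.0897% in CD8SP libraries. Mucosal-associated invariant T chains numbered 1 to 7 reads in CD4SP and 0 to 10 in CD8SP libraries. Reads with a delta V or J segment were 0.798% to 1.04% of alpha and delta reads in CD4SP and 0.686% to 1.16% in CD8SP. The part of NKT cells in the members' shares was not tested, since alpha and beta chains are not paired in these libraries.

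**Figure D1:**
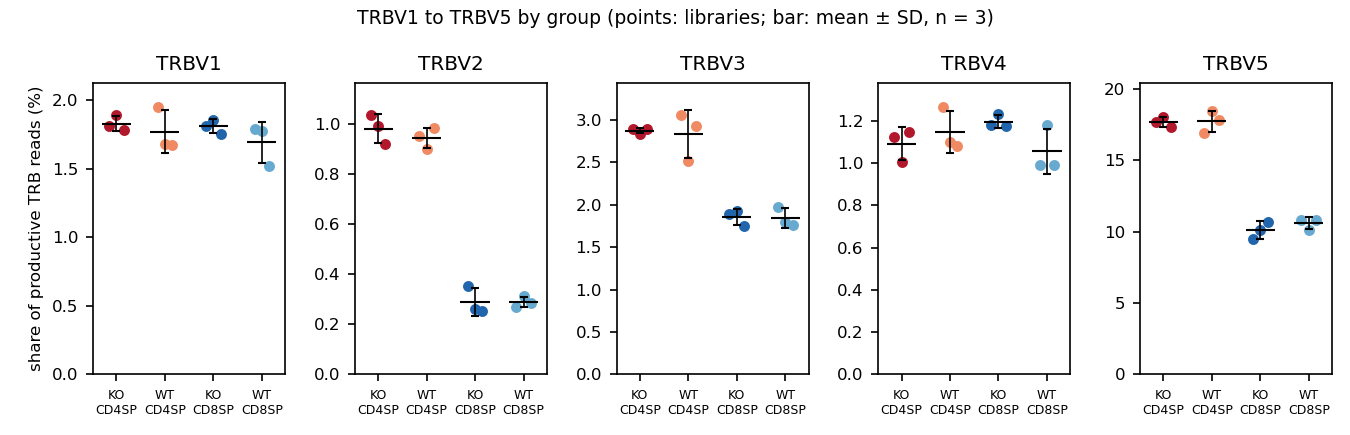
Share of productive beta reads (percent, y axis, each panel with its own scale from 0) for each of the 5 members. Points are libraries and bars the mean ± SD of 3 libraries in the KO CD4SP, WT CD4SP, KO CD8SP and WT CD8SP groups; TRBV2, TRBV3 and TRBV5 sit higher in both CD4SP groups, and KO and WT overlap in every panel.

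The lineage differences were alike in size in the genotypes taken separately. TRBV2 had log2 fold changes of 1.76 in KO mice and 1.70 in WT mice, TRBV3 0.63 and 0.62, and TRBV5 0.81 and 0.75, each called by edgeR in both genotypes. The same 85.7% of 35 segments were called in each genotype. TRBV1 had 0.02 in KO and 0.06 in WT mice, and TRBV4 had -0.13 in KO and 0.12 in WT mice; no adjusted p of these 4 values passed. In KO mice TRBV4 was called lower in CD4SP with TMM factors (-0.26, adjusted p = 0.0134) and with each clonotype counted once (-0.34, adjusted p = 0.00137). Without WT replicate 2, all 5 members were called higher in WT mice, with TRBV4 at 0.23 (edgeR adjusted p = 0.0116).

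By the root mean square difference of centred log2 shares over the 12 libraries, TRBV2 was most like TRBV31 (0.181), the inverted V segment at the 3′ end of the locus, and next TRBV5 (0.510). TRBV1 and TRBV4 were each other's closest among 22 TRBV segments (0.101), followed by TRBV15 for both. TRBV3 lay closest to TRBV13-2 (0.104) and TRBV23 (0.115), and TRBV5 to TRBV23 (0.127) and TRBV3 (0.137). These values describe likeness only. Both lineages are among the 12 libraries, so each value includes the lineage differences of the segments already given. Of 9 TRBV segments in the middle of the locus, 2 were called higher and 7 lower in CD4SP, with a median of -0.91. Of 7 proximal ones, 5 were called higher and 1 lower, with a median of 0.42.

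Nonproductive joins encode no beta chain and are as a rule carried by cells whose other allele does, so they offer a second reading of the same segments. Some reads counted as nonproductive lay 1 base from a productive CDR3, as given below, and whether these are true nonproductive joins was not tested. Nonproductive reads made up 10.9% of all TRBV4 reads, the third highest of 24 TRBV segments, and 6.95% of TRBV2 reads, the sixth highest. The shares were 1.27% for TRBV5, 0.813% for TRBV1 and 0.602% for TRBV3. In TRBV4, 14.7% ± 1.58 of the reads were nonproductive in CD4SP and 7.83% ± 1.04 in CD8SP libraries (SD, n = 6 each). The lowest CD4SP library, at 12.6%, was above the highest CD8SP library, at 9.01%. Over all beta reads with a covered CDR3, the nonproductive share was 1.93% to 2.33% in CD4SP and 1.36% to 1.52% in CD8SP libraries, also without overlap.

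Among nonproductive reads, 23.5% of 34 segments were called between lineages by edgeR, and 3 of the 5 members were, all higher in CD4SP. TRBV2 took 2.76% to 3.86% of nonproductive reads in CD4SP and 0.865% to 2.29% in CD8SP, with a log2 fold change of 1.03 (SE 0.177, adjusted p = 1.05e-06). These ranges did not overlap. TRBV4 took 8.06% to 9.56% of nonproductive reads in CD4SP and 4.81% to 7.61% in CD8SP, also without overlap, at 0.40 (SE 0.097, adjusted p = 0.000549). TRBV5 took 9.38% to 11.6% in CD4SP and 8.11% to 10.1% in CD8SP, at 0.23 (SE 0.078, adjusted p = 0.0228). Of nonproductive TRBV5 reads, 18.1% were 1 base longer or shorter than a productive CDR3 of the same library, V and J, against 0.890% to 10% in the other members. Without such reads TRBV5 had 0.18 (adjusted p = 0.207), whereas TRBV2 and TRBV4 kept 0.99 and 0.40 and their calls. Without WT replicate 3, TRBV2 alone was called, and TRBV4 had 0.30 (adjusted p = 0.0517).

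The difference between the kinds of join was tested in a single model, in which 73.5% of 34 segments were called, 44.1% with a positive and 29.4% with a negative difference. Of the members, 3 were called with a positive and 1 with a negative difference. In TRBV2 the CD4SP effect was larger in productive than in nonproductive reads by 0.71 (SE 0.209, edgeR adjusted p = 0.00446). It was larger by 0.80 in TRBV3 (SE 0.244, adjusted p = 0.00566) and by 0.54 in TRBV5 (SE 0.074, adjusted p = 2.4e-07). In TRBV4 it was smaller in productive reads, by -0.41 (SE 0.130, adjusted p = 0.00723). TRBV1 had 0.12 (SE 0.256, adjusted p = 0.676). With each clonotype counted once, 2 of the 5 members were called in place of 4: TRBV2 had 0.38 (adjusted p = 0.197) and TRBV3 0.57 (adjusted p = 0.0664). Without KO replicate 2, TRBV2 (0.50, adjusted p = 0.0583) and TRBV4 (-0.32, adjusted p = 0.0518) lost the call.

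**Figure D2:**
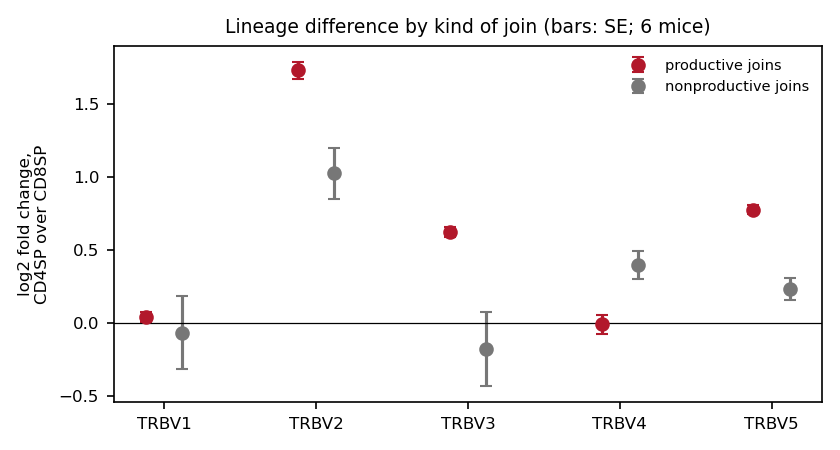
Log2 fold change of each member's share, CD4SP over CD8SP (y axis), in productive joins (red) and nonproductive joins (grey). Points are edgeR estimates over 6 mice and bars their SE; TRBV2, TRBV3 and TRBV5 lie higher in productive joins, and TRBV4 lies at -0.01 in productive and 0.40 in nonproductive joins.

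J partners were compared next. Of 60 pairs of a member with a TRBJ segment, 41 were called higher and 4 lower in CD4SP, 75% in all, while 79.9% of all 249 V-J pairs were called, 43.4% as higher and 36.5% as lower. The 5 largest rises among pairs of at least 0.05% of reads were all TRBV2 pairs, with TRBJ2-4 first (log2 fold change 1.999, SE 0.158, edgeR adjusted p = 6.03e-15). TRBV2 with TRBJ2-7 had 1.78, with TRBJ2-3 1.73, with TRBJ2-5 1.47 and with TRBJ2-1 1.33. The 4 pairs called lower were TRBV4 with TRBJ2-1 (-0.40) and TRBJ2-3 (-0.37), and TRBV1 with TRBJ2-1 (-0.32) and TRBJ1-1 (-0.30). TRBV4 with TRBJ2-3 lost its call without clonotypes of 1 read (-0.40, adjusted p = 0.0584), without KO replicate 1 (-0.26, adjusted p = 0.144) and without KO replicate 2 (-0.33, adjusted p = 0.0666).

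Within the reads of a V segment, which removes the level of the V itself, J use also moved between lineages. TRBJ2-1 was called lower in CD4SP in 5 of 5 members, at log2 fold changes of -0.67 to -0.36. TRBJ2-4 was called higher in 4 of 5 and had positive values in all 5, from 0.26 to 0.81. Neither difference was limited to the members. Among 16 other V segments TRBJ2-1 was called lower in 14 and negative in all 16, and TRBJ2-4 was called higher in 11 and positive in all 16. Over all productive beta reads, TRBJ2-1 took 10.5% in CD4SP and 14.3% in CD8SP (log2 fold change -0.45, higher in CD4SP in 0 of 6 mice), and TRBJ2-4 took 11.2% in CD4SP and 9.18% in CD8SP (0.29, higher in 6 of 6 mice). Over all J segments 23 of 60 member pairs were called, 13 higher and 10 lower, against 50.2% of 249 pairs (28.1% higher, 22.1% lower). The ends of the CDR3 that these J segments encode untrimmed are shown for comparison, with codons for acidic residues in capitals.
TRBJ2-1: taactatgctGAGcagttcttc
TRBJ2-4: agtcaaaacaccttgtacttt
TRBJ2-1 encodes a glutamate in this stretch and TRBJ2-4 has no codon for an acidic residue. TRBJ1-4, TRBJ2-3 and TRBJ2-5 also encode an acidic residue there and were called higher within TRBV5, at 0.41, 0.33 and 0.28. TRBJ1-1 and TRBJ2-7 encode one too and were called lower within TRBV5, at -0.25 and -0.20. TRBJ1-2, with an acidic residue as well, had -0.10 and was not called (edgeR adjusted p = 0.302). J segments with an acidic codon went in both directions within TRBV5. Of those without one, TRBJ1-3, TRBJ2-4 and TRBJ2-2 were called higher within TRBV5, at 0.52, 0.44 and 0.19. TRBJ1-5 and TRBJ1-6, also without one, had -0.008 and -0.021 and were not called (edgeR adjusted p = 0.956 and 0.836). The part of charge was not tested.

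In TRBV5, TRBJ2-1 made up 8.78%, 9.41% and 9.81% of the segment's reads as lowest, median and highest in CD4SP, against 14.1%, 14.96% and 15.5% in CD8SP. The ranges were far apart, and the log2 fold change was -0.67 (SE 0.037, edgeR adjusted p = 2.31e-19, lower in CD4SP in 6 of 6 mice). In TRBV4, TRBJ2-4 made up 13.0%, 17.1% and 19.1% in CD4SP, against 8.05%, 9.38% and 12.2% in CD8SP, at 0.81 (SE 0.113, adjusted p = 6.12e-08, higher in 6 of 6 mice). TRBV3 with TRBJ2-4 had 0.47 and TRBV5 with TRBJ2-4 had 0.44. TRBV5 with TRBJ1-3 rose by 0.52, at 3.45% ± 0.126 of TRBV5 reads in CD4SP and 2.40% ± 0.190 in CD8SP (SD, n = 6 each). TRBV1 with TRBJ1-3 had 0.42 (adjusted p = 0.0265) with 5 of 6 mice higher. That call was lost with each clonotype counted once (0.29, adjusted p = 0.0612), with DESeq2 (0.43, adjusted p = 0.051) and without KO replicate 1, KO replicate 3 or WT replicate 1, at 0.25 to 0.42 with adjusted p up to 0.232.

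TRBJ2-1 within the other members had -0.42 in TRBV3, -0.40 in TRBV2 and -0.38 in TRBV4, each lower in CD4SP in 6 of 6 mice. The TRBV2 call was lost without clonotypes of 1 read (-0.38, adjusted p = 0.116), without KO replicate 1 (-0.32, adjusted p = 0.122) and without KO replicate 2 (-0.34, adjusted p = 0.0852). TRBV4 with TRBJ2-3 had -0.36 (adjusted p = 0.0308), lower in 5 of 6 mice. It was not called without clonotypes of 1 read (-0.42, adjusted p = 0.0691), with DESeq2 (-0.36, adjusted p = 0.0531), without KO replicate 1 (-0.26, adjusted p = 0.156) or without WT replicate 1 (-0.33, adjusted p = 0.066). Called J segments numbered 9 of 12 within TRBV5, 6 of 12 within TRBV1, 4 of 12 within TRBV4, 3 of 12 within TRBV3 and 1 of 12 within TRBV2. The members differ in depth, from 166701 reads in TRBV5 to 7162 in TRBV2. TRBJ1-3 had 0.51 within TRBV2 (SE 0.321, not called) and 0.52 within TRBV5 (SE 0.069, called). The counts of calls thus do not rank the size of the changes, and the part of depth was not tested.

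**Figure D3:**
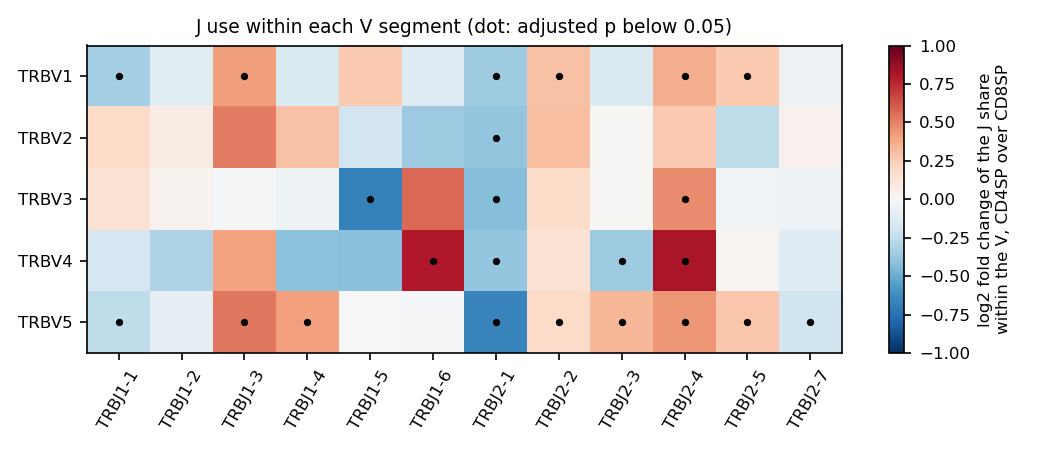
Log2 fold change of each J segment's share within a member's reads, CD4SP over CD8SP (colour; members down the page, J segments across). Dots mark adjusted p below 0.05; the TRBJ2-1 column is blue with a dot in all 5 rows, and the TRBJ2-4 column is red in all 5.

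The joins themselves also differed. Of 34 measures of the members' CDR3s, 23 were called by limma with Benjamini-Hochberg adjustment, 10 as higher and 13 as lower. Over all V segments 69.4% of 144 measures were called, 33.3% as higher and 36.1% as lower. CDR3s were called shorter in CD4SP in 5 of 5 members and in 13 of 21 V segments, with 2 called longer. In TRBV3 the CDR3 averaged 13.6 ± 0.024 codons in CD4SP and 14.1 ± 0.061 in CD8SP (SD, n = 6 each), a difference of -0.485 (SE 0.030, limma adjusted p = 3.06e-06). The difference was -0.365 codons in TRBV4, -0.352 in TRBV2, -0.238 in TRBV1 and -0.101 in TRBV5, and each was negative in 6 of 6 mice. The median over 21 V segments was -0.160 codons, and -0.485 in TRBV3 was the most negative of them.

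The bases between the V and J ends, which hold the D segment and added bases, were called fewer in CD4SP in 5 of 5 members and in 15 of 21 V segments, with 3 called higher. TRBV3 had 8.57 ± 0.080 bases in CD4SP and 9.92 ± 0.126 in CD8SP, and TRBV4 had 8.98 ± 0.358 in CD4SP and 10.2 ± 0.0902 in CD8SP (SD, n = 6 each). The differences of -1.35 in TRBV3 and -1.20 in TRBV4 compare with a median of -0.437 over the 21 V segments. In TRBV5 the difference was -0.478 bases (SE 0.046, limma adjusted p = 5.88e-05).

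**Figure D4:**
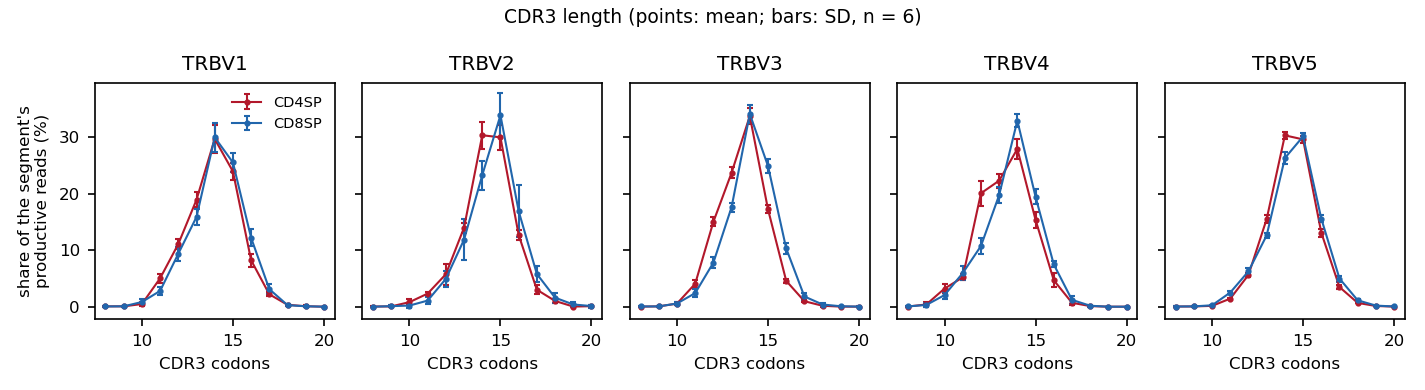
Share of each member's productive reads (percent, y axis) by CDR3 length in codons (x axis) in CD4SP (red) and CD8SP (blue). Points are means and bars SDs over 6 libraries; in TRBV4 the 12-codon joins stand at 20.04% in CD4SP and 10.7% in CD8SP.

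TRBV4 joins of 12 codons formed a shoulder in CD4SP, a length chosen for description after its values were seen. They made up 17.02% to 22.0% of TRBV4 reads in CD4SP (median 20.8%) and 9.40% to 12.9% in CD8SP (median 10.4%), higher in CD4SP in 6 of 6 mice. With TRBJ2-4 they made up 3.73% ± 0.890 in CD4SP and 0.780% ± 0.457 in CD8SP, and with the other J segments 16.3% ± 1.63 in CD4SP and 9.94% ± 1.20 in CD8SP (SD, n = 6 each). The CD4SP reads came from 514 amino acid clonotypes, the largest with 4.37% of them. TRBV3 had a like difference at 12 codons, 15.0007% ± 0.812 in CD4SP and 7.79% ± 0.911 in CD8SP (SD, n = 6 each).

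Trimming of the V ends was also measured. Over 21 V segments it was called higher in CD4SP in 8 and lower in 8, so calls in both directions were general. Productive TRBV4 joins had lost 4.38 ± 0.073 V bases in CD4SP and 4.47 ± 0.058 in CD8SP (SD, n = 6 each), the most of the 5 members. Only 2.03% of productive TRBV4 reads in CD4SP and 2.26% in CD8SP had a V end assigned as untrimmed. All 301 of these reads differed from the germline opening shown above, and none had a stop at the fifth codon. The productive filter fixes both, since it drops every CDR3 with a stop. It also drops TRBV4 joins that keep the TAA codon, so the trimming seen in productive TRBV4 reads partly reflects that filter. TRBV2 and TRBV5, with the same V end, had 46.3% ± 2.63 and 44.1% ± 0.565 untrimmed reads in CD4SP. In CD8SP they had 64.0% ± 6.17 and 40.6% ± 0.952. TRBV2 joins had lost 1.54 ± 0.108 bases in CD4SP and 1.04 ± 0.187 in CD8SP, a difference of 0.496 (SE 0.077, limma adjusted p = 0.000447, higher in 6 of 6 mice). In TRBV5 the difference had the opposite sign, -0.122 (SE 0.028, adjusted p = 0.00371, lower in 6 of 6 mice). TRBV1 had 0.223 (higher in 6 of 6 mice) and TRBV3 -0.141 (adjusted p = 0.0369, lower in 4 of 6 mice). The TRBV3 call was lost with each clonotype counted once (-0.104, adjusted p = 0.0663), without KO replicate 1 (-0.115, adjusted p = 0.102) and without each WT replicate in turn (-0.135 to -0.118, adjusted p 0.0831 to 0.109).

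Charge and hydropathy of the loop were read from the residues that the joins encode. Net charge was called higher, here less negative, in CD4SP in 4 of 5 members and in 17 of 21 V segments. TRBV2 averaged -0.963 ± 0.045 in CD4SP and -1.23 ± 0.087 in CD8SP (SD, n = 6 each), and its difference of 0.266 (SE 0.039, limma adjusted p = 0.000423) was the most positive of the 21. The difference was 0.189 in TRBV1, 0.179 in TRBV4 and 0.074 in TRBV5, and TRBV3 had -0.008 (adjusted p = 0.501). At CDR3 residues 6 and 7, counted from its first codon, on the Kyte-Doolittle scale where higher is more hydrophobic, TRBV2 averaged -1.54 ± 0.041 in CD4SP and -1.92 ± 0.070 in CD8SP. That difference of 0.375 (SE 0.028, limma adjusted p = 1.05e-05, higher in 6 of 6 mice) was the most positive of 21 V segments. TRBV5, with the same CDR3 opening and CDR1 peptide, had -0.020 (adjusted p = 0.343). No other member was called for hydropathy, while 6 of 21 V segments were called higher and 4 lower. Among the members, the share of TRBJ1 joins was called in TRBV1 only, at 25.3% ± 1.58 in CD4SP and 26.9% ± 2.07 in CD8SP. That call was lost without the block for the mouse (limma adjusted p = 0.183). Over 21 V segments the TRBJ1 share was called higher in 1 and lower in 6.

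In draws of 500 reads per library and member, distinct clonotypes were more numerous in CD4SP for TRBV3 (446 ± 5.86 in CD4SP, 411 ± 6.32 in CD8SP), TRBV5 (486 ± 0.693 in CD4SP, 468 ± 1.49 in CD8SP) and TRBV1 (412 ± 9.46 in CD4SP, 395 ± 4.15 in CD8SP; SD, n = 6 each). Over the 18 V segments drawn, 11 were called higher in CD4SP and 5 lower, so such calls were general. CD4SP samples held more cells than CD8SP samples, and the part of this in the number of distinct clonotypes was not tested. Without clonotypes of 1 read, the TRBV1 difference was called with the opposite sign, at -27.66, and TRBV3 had 16.2 (adjusted p = 0.110). TRBV4 had 366 ± 9.56 in CD4SP and 364 ± 14.3 in CD8SP, and TRBV2 had too few reads to be drawn.

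Sharing of clonotypes between libraries was more frequent in TRBV5 than in the other 4 members. Of its 49862 amino acid clonotypes, 730 occurred in 6 or more libraries and 16 in all 12. The other members had 1 (TRBV2) to 28 (TRBV3) in 6 or more libraries and none in all 12. TRBV2 had 95.2% of its clonotypes in only 1 library, against 81.0% in TRBV5; deeper segments are seen in more libraries. Clonotypes in 6 or more libraries were 1.46% of TRBV5 clonotypes and held 13.9% of its reads, against 0.790% of clonotypes and 8.003% of reads over the TRBV segments outside these 5. Those other segments had 32 clonotypes in all 12 libraries. The nucleotide forms with the most reads follow, with bases assigned to neither V nor J in capitals. They belong to the most widely shared clonotype of TRBV4 and to 1 of the 16 TRBV5 clonotypes in all 12 libraries. Reads given for a clonotype are summed over all nucleotide forms that encode it.
TRBV4 with TRBJ2-7: tgtgccagcagctcctatgaacagtacttc
TRBV5 with TRBJ2-7: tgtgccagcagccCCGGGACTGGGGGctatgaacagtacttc
The TRBV4 form has 10 codons and no such base, and its clonotype occurred in 10 libraries with 12.3 reads per 100000 in CD4SP and 6.54 in CD8SP (edgeR adjusted p = 0.116). The TRBV5 form has 13 such bases, and its clonotype had 5.66 reads per 100000 in CD4SP and 25.0 in CD8SP, a log2 fold change of -2.12 (SE 0.701, adjusted p = 0.00706). It occurred in all 12 libraries. Another TRBV5 clonotype with TRBJ2-7, also in all 12 libraries, had 10.8 reads per 100000 in CD4SP and 14.5 in CD8SP. Its log2 fold change was -0.19 (SE 0.693, edgeR adjusted p = 0.824).

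Of 60 member clonotypes frequent enough to test, 57 used TRBV5, 2 TRBV4 and 1 TRBV3. In CD4SP 25 were higher and 6 lower, 51.7% called against 58.6% of all 203 public clonotypes. Of the TRBV5 clonotypes 23 were higher and 6 lower. Clonotypes were counted against all productive reads, so the rise of TRBV5 itself (log2 fold change 0.78) is part of this split. The largest rise and fall, and the calls outside TRBV5, which were added after their values were seen, had these leading forms. Capitals again mark bases assigned to neither V nor J. The lower-case ag after the capitals in the TRBV3 form is not in the untrimmed TRBJ2-7 end, ctcctatgaacagtacttc, though it was assigned to J. The same holds for the t after the capital in the TRBV4 form and the untrimmed TRBJ2-4 end.
TRBV5 with TRBJ2-3: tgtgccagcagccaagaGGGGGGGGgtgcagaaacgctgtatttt
TRBV5 with TRBJ2-7: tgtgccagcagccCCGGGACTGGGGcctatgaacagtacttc
TRBV3 with TRBJ2-7: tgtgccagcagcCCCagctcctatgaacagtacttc
TRBV4 with TRBJ2-4: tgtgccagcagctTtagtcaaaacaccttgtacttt
The TRBV5 clonotype with TRBJ2-3 had 65 reads in CD4SP, from 6 of 6 libraries, and 0 in CD8SP. Against a floor of 3 reads over the CD8SP libraries it was at least 28.8-fold higher (edgeR adjusted p = 2.77e-05). Only its CD4SP reads made it frequent enough to test. The other forms shown likewise had nearly all reads in 1 lineage. All were picked by their values, so the adjusted p-values give no separate support. The TRBV5 clonotype with TRBJ2-7 had 4 reads in CD4SP, from 1 library, and 77 reads in CD8SP, from 6 libraries, at a log2 fold change of -4.58 (SE 1.27, adjusted p = 0.00154). The TRBV3 clonotype had 72 reads in CD4SP, from 6 libraries, and 4 in CD8SP, at 5.05 (SE 1.13, adjusted p = 9.24e-05). The TRBV4 clonotype, with 12 codons and 1 nucleotide form, had 52 reads in CD4SP, from 4 libraries, and 4 in CD8SP, at 4.60 (SE 1.47, adjusted p = 0.00571). Counts are reads without molecular identifiers, so amplification can make 1 molecule many reads.

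Some assembled V sequences lacked a stretch of bases with recurrent ends. The TRBV3 stretch began at the first base, so only its downstream end was seen, and the TRBV5 stretch was internal. In TRBV3, 360 productive reads with 276 distinct CDR3s lacked 111 bases from the first base of the V region, an in-frame loss of 37 codons that includes CDR1 (bases 79 to 93). It occurred in 12 of 12 libraries, at 0.848% to 1.34% of productive TRBV3 reads in CD4SP (median 1.05%) and 1.09% to 2.04% in CD8SP (median 1.46%), and was lower in CD4SP in 5 of 6 mice. Another 14 of 170 nonproductive TRBV3 reads had it. In TRBV5, 282 productive reads with 199 CDR3s lacked bases 65 to 156 of the V region, 92 bases that include CDR1 (bases 76 to 90), which shifts the frame of the V region. Here productive refers to the CDR3 alone, whose frame is read from its own first codon. The loss made up 0.178% to 0.257% of productive TRBV5 reads in CD4SP (median 0.194%) and 0.0548% to 0.186% in CD8SP (median 0.124%), higher in CD4SP in 6 of 6 mice. It was found in 245 of 2148 nonproductive TRBV5 reads (11.4%), against 0.169% of productive TRBV5 reads. These spans were chosen after their values were seen, and their shares are given without a test. The assembled sequences begin at the V region, so whether bases before it were also lost was not measured.

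Loss of Chrna9 changed no member past the threshold. In CD4SP, 0 of 5 members and 0 of 35 segments (0% called) passed in KO against WT by edgeR, with 0 members and 1 segment at an unadjusted p under 0.05. In CD8SP, 0 of 5 members and 0 of 35 segments (0% called) passed, with TRBV4 the 1 segment at an unadjusted p under 0.05. KO and WT ranges overlapped for 5 of 5 members in both lineages, while 5.71% of segments in CD4SP and 8.57% in CD8SP had groups that did not overlap.

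TRBV4 in CD8SP took 1.18%, 1.23% and 1.17% in KO replicates 1 to 3, against 0.992%, 1.18% and 0.991% in WT replicates 1 to 3. WT replicate 2 lay among the KO values and the other WT libraries below them. The log2 fold change was 0.18 (SE 0.082, edgeR adjusted p = 0.584). In CD4SP TRBV4 took 1.12%, 1.00% and 1.15% in KO and 1.26%, 1.10% and 1.079% in WT, at -0.07 (SE 0.085, adjusted p = 0.932). WT CD8SP replicate 2 differed most from its group in segment use. Without it 3 of 35 segments and 2 of 5 members were called for KO against WT in CD8SP, TRBV4 higher (0.29, adjusted p = 0.012) and TRBV5 lower (-0.11, adjusted p = 0.0268).

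TRBV5 took 17.7% ± 0.352 in KO CD4SP and 17.7% ± 0.752 in WT CD4SP (SD, n = 3 each), a log2 fold change of -0.002 (SE 0.038). In CD8SP it took 10.1% ± 0.607 in KO and 10.6% ± 0.424 in WT, at -0.07 (SE 0.038, edgeR adjusted p = 0.584). TRBV1 had 0.05 (SE 0.064) in CD4SP and 0.10 (SE 0.062) in CD8SP. TRBV2 had 0.05 (SE 0.091) in CD4SP and -0.01 (SE 0.110) in CD8SP, and TRBV3 had 0.02 (SE 0.064) and 0.01 (SE 0.065). The genotype effect in CD4SP minus that in CD8SP passed in 0 of 5 members and 0 of 35 segments by edgeR (0% called, with none at an unadjusted p under 0.05). TRBV4 had -0.25 there (SE 0.115, adjusted p = 0.825), and -0.37 (adjusted p = 0.0498) without WT replicate 2. Invariant NKT chains made up 6.37% to 8.49% of productive alpha reads in KO CD4SP and 5.26% to 6.51% in WT CD4SP, and their part in the members' values was not tested.

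**Figure D5:**
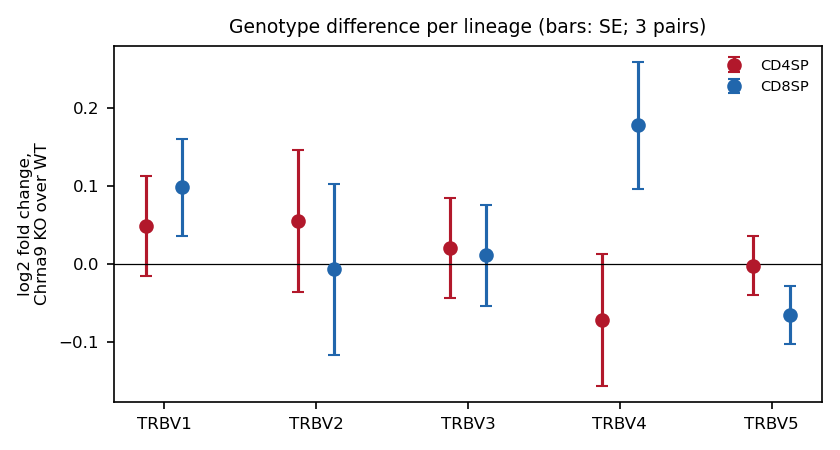
Log2 fold change of each member's share, KO over WT (y axis), in CD4SP (red) and CD8SP (blue) thymocytes. Points are edgeR estimates over 3 pairs and bars their SE; values lie between -0.07 and 0.18, and none passed the threshold.

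Finer features did not pass between genotypes either. By edgeR, 0 of 60 member V-J pairs were called in CD4SP and 0 of 60 in CD8SP (0% of 249 in each), with 0 and 2 member pairs at an unadjusted p under 0.05. By limma, 0 of 34 CDR3 measures of members were called in CD4SP and 0 of 34 in CD8SP (0% of 144 in each), with 2 and 0 at an unadjusted p under 0.05. Of 60 public member clonotypes, 0 were called in either lineage by edgeR (0% of 203 in each), with 1 in CD4SP and 5 in CD8SP at an unadjusted p under 0.05. A design of 3 pairs limits what such tests can detect, and these results do not show that the repertoires were alike.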

How the data were processed

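Beta chain clonotype tables of 12 thymocyte libraries were used, with the alpha and delta tables for marker chains. Receptor cDNA was prepared with a SMARTer mouse alpha and beta kit and read on a MiSeq instrument, per the labels' protocols. The series' design text names MiXCR, VDJtools and a paired two-tailed comparison, and the submitters' processing notes list mm10; no MiXCR version was stated. Each deposited file lists clonotypes with counts of reads, per the file headers, and a deposited fraction of the file's reads, used here only to check those counts. Molecules were not counted, so floors cover counting error only.

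Rows were joined by V, J and CDR3 nucleotides, which merged 5.41% of rows. Segments came from the best V and J hits, and 0 member reads had tied V hits. Counts were tested with edgeR 4.0.16 (quasi-likelihood, productive reads as library size, filterByExpr with the 4 groups, Benjamini-Hochberg, threshold 0.05) in R 4.3.3, on all 12 libraries. Lineage contrasts had the mouse as a block. Genotype contrasts had the replicate number, because the design text pairs the mice; they take the lineages of a mouse as independent. J use within V had the V reads as offset. CDR3 measures, for V segments with at least 200 reads in every library used, were tested with limma 3.58.1. DESeq2 1.42.0 was an alternative. Other steps ran in Python 3.11.15. The tests were checked on simulated counts. All 36 TRB segments in the files matched the RefSeq gene table (GRCm38.p6) by symbol. No libraries were duplicates by a chi-square test of segment counts.

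Deviations of segment shares from group means correlated at r = 0.21 to 0.64 between both lineages of a single mouse, and at -0.53 to 0.51 between KO and WT libraries of the same number.

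The members and lists were chosen with earlier results of these data known. All 5 members were named in each contrast. For V-J pairs and J within V, the 5 largest called changes per direction were named among pairs of at least 0.05% of reads. For measures, at most 3 called members per measure were to be named; the other members' values were added. For public clonotypes, the 2 most widely shared per member and the 3 largest called changes per direction were candidates. Those whose joins are printed are described, besides the other widely shared TRBV5 candidate.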

Additional observations from a re-analysis of the deposited data

Results flagged for a closer look

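Over the 6 CD8SP libraries, TRBV1 took 1.52% of productive reads in WT replicate 3, and the nearest other library had 1.76%. Its gap was 0.700 of the range of the 6 libraries, past the limit for an outlying value at this number. This was the only outlying value in 20 groups of member shares and nonproductive shares that were checked, and chance gives about 1 in 20.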

How the results depend on the processing

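Calls of TRBV2, TRBV3 and TRBV5 between lineages held under every alternative run. Between lineages, 5 of 5 members were called in place of 3 with TMM factors, with DESeq2 and with each clonotype counted once. In KO mice 4 were called in place of 3 with TMM factors and with each clonotype once, TRBV4 as lower. Leaving out 1 library or mouse gave 3 to 5 called members in WT mice, 0 to 2 for KO against WT in CD8SP, 0 to 1 for the difference of the genotype effects, 1 to 3 among nonproductive reads and 2 to 4 for productive minus nonproductive joins. The last count was 2 with each clonotype once. Without clonotypes of 1 read, 1 public member clonotype was called for KO against WT in CD8SP. The causes were not tested.

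Signs turned as follows, on the log2 scale. The lineage value of TRBV1 was -0.0925 with TMM, -0.122 with DESeq2 and -0.0601 with each clonotype once. In KO mice it was -0.11 with TMM and -0.0417 with each clonotype once. In WT mice TRBV1 had -0.0742 with TMM and -0.0801 with each clonotype once, and TRBV4 had -0.0180 with TMM and -0.156 with each clonotype once. TRBV4 had 0.0157 over all mice without clonotypes of 1 read. For KO against WT without clonotypes of 1 read, TRBV5 had 0.00919 in CD4SP, and TRBV2 had 0.0853 and TRBV3 -0.00225 in CD8SP. TRBV3 had -0.00183 with TMM and -0.00331 with DESeq2 there. The genotype effect in CD4SP minus that in CD8SP was -0.0630 in TRBV2 without clonotypes of 1 read and 0.0383 in TRBV1 with each clonotype once. Distinct TRBV1 clonotypes differed by -27.66 without clonotypes of 1 read.

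Leaving out 1 library or mouse gave ranges across 0 for these uncalled values: TRBV4 between lineages (-0.0788 to 0.0476); KO against WT in CD4SP for TRBV1 (-0.0113 to 0.112), TRBV3 (-0.0600 to 0.0674), TRBV4 (-0.141 to 0.0137) and TRBV5 (-0.0259 to 0.0323); and in CD8SP for TRBV2 (-0.160 to 0.0760) and TRBV3 (-0.0553 to 0.0503). The difference of genotype effects ranged over -0.0418 to 0.179 in TRBV2 and -0.0511 to 0.0696 in TRBV3. TRBV1 ranged over -0.24 to 0.12 among nonproductive reads and -0.0603 to 0.310 for productive minus nonproductive joins.

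Without the replicate block, 3 members, 45 V-J pairs, 23 J uses within V, 3 nonproductive members, 21 measures and 35 public clonotypes were called between lineages, and 0 features of members between genotypes. TRBV2 then had 0.00203 for KO against WT in CD8SP. Same-numbered KO and WT libraries did not deviate together, so that block rests on the design text alone. TRBV2 gave the fewest reads and limits what its J and clonotype comparisons can detect. The exclusion of nonproductive reads 1 base from a productive CDR3, and draws of 200 reads in place of 500, were chosen after seeing the data.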
